A study of Mus musculus with 10 samples.

Results

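The enzymes that make, pass on and remove hydrogen sulfide were followed in mouse kidney by the counts of 9 genes, Cth, Cbs, Mpst, Ethe1, Tst, Suox, Bhmt, Ahcy and Gnmt. The genes were chosen by symbol, as a set linked to dietary restriction, and each was found once among the 43629 genes of the count table. The question was whether feeding rilmenidine, an antihypertensive drug studied as a mimetic of caloric restriction, changed their transcripts in the kidney. Libraries came from male UM-HET3 mice, a genetically mixed stock in which every animal carries its own combination of alleles. Control mice (n = 6) ate Purina 5LG6 chow, and further control kidneys that the study's methods mention were not analysed here. Treated mice (n = 4) ate the same chow with rilmenidine at 10 ppm for 1 month, starting at 3 months of age, and both groups were 4 months old at collection. Poly(A) RNA was counted per gene, and total counts ran from 863605 to 2559118 in control kidneys and from 1813465 to 3232063 in rilmenidine kidneys. The labels name kidney while their extraction text speaks of liver, so the tissue was checked with marker genes. Counts of Kap, which proximal tubules of male mice make in large amounts, were 28005 to 170342 per library, and Alb, the main secreted protein of liver, had 0 to 20.

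Methionine is activated to S-adenosylmethionine, the methyl donor of the cell, and after methyl transfer yields homocysteine. Homocysteine is either methylated back to methionine or passed into transsulfuration, in which cystathionine beta-synthase (Cbs) and cystathionine gamma-lyase (Cth) build cysteine. The same enzymes, together with 3-mercaptopyruvate sulfurtransferase (Mpst), release hydrogen sulfide, which mitochondria oxidize to thiosulfate and sulfate. The proximal tubule of the kidney is known for this chemistry, and transsulfuration in liver and kidney is known to respond to restriction of dietary protein or methionine.

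Promoter sequences were printed for 3 genes, because Bhmt and Bhmt2 are neighboring paralogs with very different levels in these kidneys and Gnmt had the largest fold change among the enzymes. They are RefSeq windows of 300 bases on GRCm38.p6, from 250 bases before to 50 after the start of transcription, written 5′ to 3′ on the strand of the gene. RefSeq windows were found for 7 of the 9 enzymes, and Cth and Tst had none in the table used here. Capitals mark matches on either strand to CCAAT (the CCAAT box) or to CAAAGGTCA (part of a nuclear receptor element). The second motif was picked after the Bhmt sequence had been seen. The windows lie at chr13:93637709-93638008 for Bhmt, chr13:93674253-93674552 for Bhmt2 and chr17:46729116-46729415 for Gnmt, all on the minus strand.
Bhmt: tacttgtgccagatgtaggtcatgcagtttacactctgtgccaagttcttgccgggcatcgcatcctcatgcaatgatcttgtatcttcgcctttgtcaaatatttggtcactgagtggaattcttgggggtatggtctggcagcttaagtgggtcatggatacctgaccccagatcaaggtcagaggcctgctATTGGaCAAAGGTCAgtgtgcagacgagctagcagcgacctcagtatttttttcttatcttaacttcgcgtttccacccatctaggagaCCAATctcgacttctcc
Bhmt2: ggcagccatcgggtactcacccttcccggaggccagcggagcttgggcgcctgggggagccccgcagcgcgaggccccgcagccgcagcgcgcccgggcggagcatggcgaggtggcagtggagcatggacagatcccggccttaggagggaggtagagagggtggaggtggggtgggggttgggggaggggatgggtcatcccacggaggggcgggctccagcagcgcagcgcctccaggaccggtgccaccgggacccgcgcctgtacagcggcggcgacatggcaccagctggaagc
Gnmt: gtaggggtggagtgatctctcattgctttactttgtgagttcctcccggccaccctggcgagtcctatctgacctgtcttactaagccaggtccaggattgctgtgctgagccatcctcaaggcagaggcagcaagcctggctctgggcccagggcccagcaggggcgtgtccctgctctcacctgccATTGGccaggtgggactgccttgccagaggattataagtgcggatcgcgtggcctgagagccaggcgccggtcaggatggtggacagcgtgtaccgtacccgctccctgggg
The Bhmt window held 48.0% G and C and 8 CpG dinucleotides, whereas that of Bhmt2 held 73.7% and 26, beside medians of 52.7% and 7 over all promoters. CAAAGGTCA stood 50 bases before the start of Bhmt and in 0.478% of all 32851 promoter windows, and CCAAT in 37.4% of them. The C/EBP-ATF element TGATGNAA, which ATF4 can bind, is in 3.97% of all windows, and the antioxidant response element TGACNNNGC is in 12.4%. Of the enzymes' windows, 1 of the 3 for Mpst matched the antioxidant element, and the windows of the 7 enzymes had no match to TGATGNAA or to TATAAA. These are matches of letters and not measured binding sites.

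The enzymes spanned a wide range of levels in these kidneys. Per kilobase of annotated exon, the mean over 10 kidneys was 151 normalized CPM (reads scaled to the effective library size) for Ethe1, 76.3 for Gnmt and 66.3 for Cth. Ahcy followed with 20.9, Suox with 17.8 and Cbs with 17.7. Mpst, Tst and Bhmt came last with 2.63, 1.19 and 0.780. The range over kidneys of Gnmt, 39.4 to 114, overlapped those of Ethe1 and Cth. Ranges of Ahcy, Suox and Cbs also overlapped one another, as did those of Mpst with Tst and of Tst with Bhmt, and these neighbors in the order were not resolved. The lowest kidney for Cth, at 52.6 CPM per kilobase, lay above the highest for Ahcy, at 35.2, and the lowest for Cbs, at 14.2, lay above the highest for Mpst, at 3.75. The library protocol cited in the labels captures transcript ends, in which case counts do not scale with length. Without division by length, Ethe1 had 225 CPM, Cth 185, Cbs 132 and Gnmt 92.0.

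**Figure D1:**
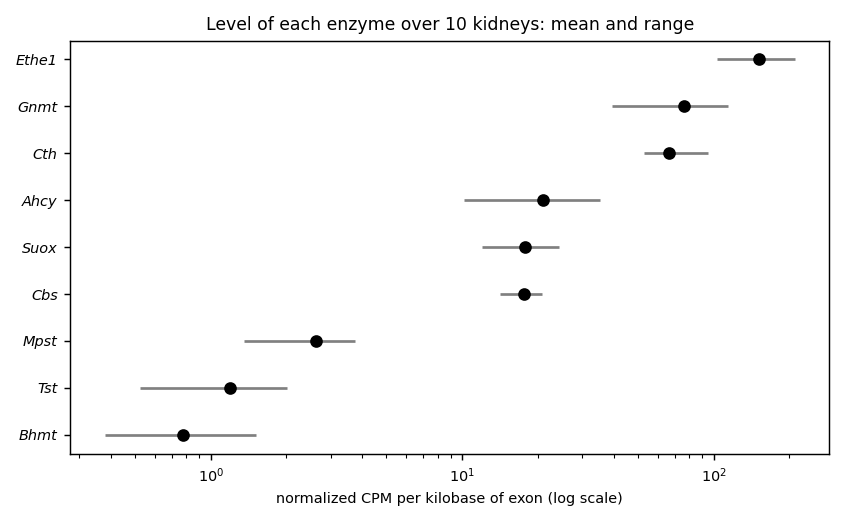
Mean normalized CPM per kilobase of exon (points, log axis) and range over the 10 kidneys (lines) of each enzyme. Ethe1 stands highest at 151, and Mpst, Tst and Bhmt stand apart at the low end, between 0.780 and 2.63.

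Bhmt and Bhmt2 both encode enzymes that remethylate homocysteine, the first with betaine and the second with S-methylmethionine as donor. Bhmt2 lies 17758 bases from Bhmt on chromosome 13 of GRCm38, from 93655720 to 93674302. It had 98.3 to 178 normalized CPM, and in each kidney this was 15.2 to 71.7 times the CPM of Bhmt. Per kilobase, the mean level of Bhmt2 was 66.8 times that of Bhmt. Bhmt itself had 3 to 16 raw counts per library, close to the limit of what these libraries can measure. With rilmenidine, Bhmt2 differed by 0.13 on the log2 scale (SE 0.18), and by 0.060 (without rilmenidine kidney 4) to 0.26 (without control kidney 3) when single kidneys were left out. It was −0.15 within the 7 libraries in which olfactory and vomeronasal receptor genes reached 10 CPM. With log2 Malat1, a nuclear RNA, as a covariate it was 0.37. Without the 4 control kidneys high in Malat1 it was 0.44 (unadjusted p-value 0.0468 in edgeR, adjusted p-value 0.999). That fit was added after seeing the data and kept control kidneys 2 and 6 alone. In it 3.22% of all tested genes had an unadjusted p-value under 0.05.

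With rilmenidine, 0 of the 8 enzymes that could be tested passed an adjusted p-value of 0.05, and 0 had an unadjusted p-value under 0.05. Among all 10055 tested genes 0% passed the adjusted threshold, and 10.6% had an unadjusted p-value under 0.05 in edgeR's quasi-likelihood test, 4.43% higher and 6.13% lower. Means leaned higher after rilmenidine for 5 of the 8 enzymes, with a median log2 fold change of 0.09, and 50.3% of all tested genes had a value above 0, with a median of 0.0021. In no enzyme were the rilmenidine kidneys separate from the control kidneys, whereas 1.67% of tested genes had groups that did not overlap (0.796% higher and 0.875% lower). Cth and Gnmt had the smallest p-values, both with higher means after the drug. The intervals below show which differences the data still allow.

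**Figure D2:**
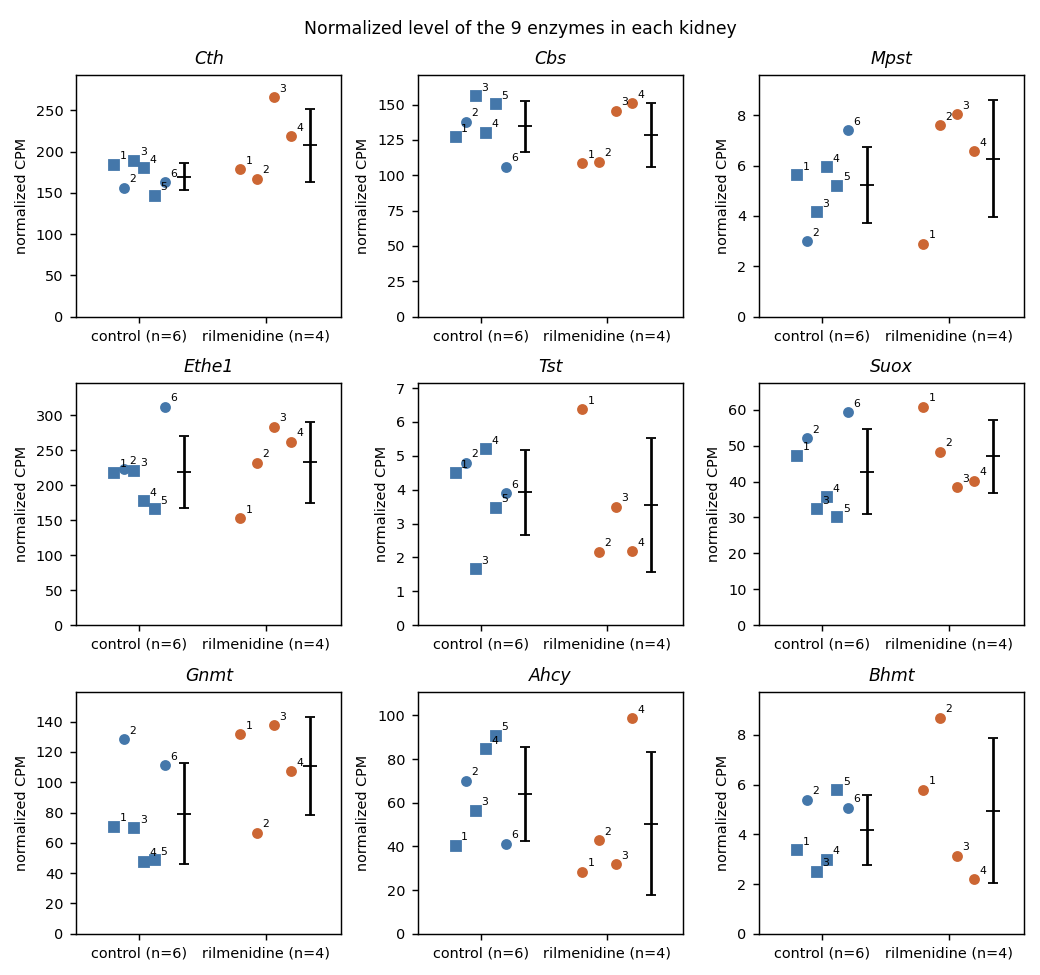
Normalized CPM of each enzyme in every kidney (points, numbered by replicate), with mean ± SD as black bars. Squares are the 4 control kidneys with more than 1000 CPM of Malat1, and in all 9 panels the control and rilmenidine points overlap.

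Of the hydrogen sulfide producers, Cth (ENSMUSG00000028179, chromosome 3, 157894248 to 157925077) encodes the lyase that splits cystathionine into cysteine. In control kidneys its level was 147 normalized CPM at the lowest, 171 at the median and 189 at the highest. In rilmenidine kidneys 1 to 4 it was 179, 167, 266 and 219. Rilmenidine kidneys 3 and 4 lay above every control kidney, while 1 and 2 lay within their range. The means were 170 ± 16.9 (SD, n = 6) and 208 ± 44.7 (SD, n = 4), a 1.22-fold ratio. On the log2 scale the difference was 0.30 (standard error, SE, 0.14, 95% interval −0.0024 to 0.59). edgeR gave it an unadjusted p-value of 0.0517, or 0.477 after adjustment. Without rilmenidine kidney 3 it was 0.15. Kidneys 3 and 4 are also the most deeply sequenced, and together with control kidney 6 they had under 10 CPM on olfactory and vomeronasal receptor genes, which kidney is not expected to use at such levels. Within the 7 other libraries (5 control and 2 rilmenidine) Cth differed by 0.02 on the log2 scale (unadjusted p-value 0.916). The remaining 3 libraries hold 1 control, too few for a value, and the part of these libraries in the result was not tested.

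Cbs (ENSMUSG00000024039, chromosome 17, 31608894 to 31637238) encodes the synthase that joins homocysteine and serine. Its level in control kidneys was 106 normalized CPM at the lowest, 134 at the median and 156 at the highest, and in rilmenidine kidneys 1 to 4 it was 108, 110, 146 and 151. All rilmenidine values lay within the control range. The means were 135 ± 18.0 (SD, n = 6) and 129 ± 22.7 (SD, n = 4), with a log2 fold change of −0.06 (SE 0.14, 95% interval −0.36 to 0.25) that turned positive under some fits. Within the 7 libraries higher in receptor genes it was −0.36. The log2 ratio of Cth to Cbs was 0.34 ± 0.25 (SD, n = 6) in control and 0.68 ± 0.15 (SD, n = 4) after rilmenidine. The difference in this ratio was not tested.

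Mpst (ENSMUSG00000071711, chromosome 15, 78406416 to 78414013), which releases sulfide from 3-mercaptopyruvate, was too low for the main test. It had 5 to 23 raw counts per library and at least 6 in 6 of the 10 libraries, where 7 were needed. Its level in rilmenidine kidneys 1 to 4 was 2.90, 7.60, 8.05 and 6.56 normalized CPM, against 3.00 to 7.41 in control kidneys. Rilmenidine kidney 1 was the lowest of all and kidneys 2 and 3 were the highest. A two-sided exact permutation test over the 210 divisions of the kidneys gave p = 0.390, where the smallest possible is 0.00476. With every detected gene kept in the edgeR fit, Mpst differed by 0.27 on the log2 scale (SE 0.43), with an adjusted p-value of 0.886. Got1, an aminotransferase that supplies mercaptopyruvate from cysteine, had the smallest p-value among the other production genes. Its log2 fold change was 0.15 (SE 0.12). It was 0.064 without rilmenidine kidney 1, 0.084 with log2 Malat1 as a covariate and 0.29 within the 7 libraries higher in receptor genes.

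Sulfide is cleared in mitochondria. Of 6 genes of that route that were tested 0 had an unadjusted p-value under 0.05, beside 10.6% of all tested genes. Ethe1 (ENSMUSG00000064254, chromosome 7, 24587543 to 24608925), the persulfide dioxygenase, had 153 to 312 normalized CPM. Its highest kidney was control 6 at 312 and its lowest was rilmenidine 1 at 153. The means were 219 ± 51.6 (SD, n = 6) in control and 233 ± 57.4 (SD, n = 4) in rilmenidine kidneys, with a log2 fold change of 0.09 (SE 0.19, 95% interval −0.31 to 0.48). With log2 library size as a covariate this was −0.21. The 5′ end of Ethe1 shares 99 exonic bases with Zfp575 on the other strand, which had at most 7 counts in a library.

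Tst (ENSMUSG00000044986, chromosome 15, 78399556 to 78405907) encodes rhodanese, a thiosulfate sulfurtransferase of the same family as Mpst. The genes of the pair point away from each other, with 508 bases between them, and both were low. Tst had 2 to 11 raw counts per library. Its normalized CPM were 1.66 to 5.20 in control kidneys and 6.38, 2.17, 3.50 and 2.19 in rilmenidine kidneys 1 to 4. Its log2 fold change of −0.19 had a 95% interval from −1.06 to 0.67, and differences inside this range were not excluded.

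Suox (ENSMUSG00000049858, chromosome 10, 128669894 to 128674073), the sulfite oxidase that finishes the route to sulfate, had 30.1 normalized CPM at the lowest, 41.4 at the median and 59.3 at the highest in control kidneys. In rilmenidine kidneys 1 to 4 it had 60.9, 48.3, 38.5 and 40.3. Rilmenidine kidney 1 was just above every control kidney and the others lay among them. The groups differed by 0.11 on the log2 scale (SE 0.20, 95% interval −0.32 to 0.54). This value was −0.24 with log2 Malat1 as a covariate and 0.47 within the 7 libraries higher in receptor genes. Leaving out single kidneys gave −0.034 (without rilmenidine kidney 1) to 0.24 (without control kidney 6). Sqor, the quinone oxidoreductase that takes up sulfide first and had the smallest p-value of the other oxidation genes, had 76.8 ± 23.5 (SD, n = 6) and 95.1 ± 17.9 (SD, n = 4) normalized CPM. This is a log2 difference of 0.29 (SE 0.20). The difference was −0.06 with log2 Malat1 as a covariate. Within the 7 libraries higher in receptor genes it was 0.64 (unadjusted p-value 0.0135 in edgeR, adjusted p-value 0.349). It was 0.45 without control kidney 6 (unadjusted p-value 0.0308, adjusted p-value 0.290). Without rilmenidine kidney 1 it was 0.17 (unadjusted p-value 0.455), and without control kidney 5 it was 0.19 (unadjusted p-value 0.335).

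In the methionine cycle, Gnmt (ENSMUSG00000002769, chromosome 17, 46725664 to 46729168) encodes the glycine methyltransferase that uses up S-adenosylmethionine. Its level was 70.7, 128, 69.7, 47.5, 48.6 and 111 normalized CPM in control kidneys 1 to 6. In rilmenidine kidneys 1 to 4 it was 132, 66.8, 138 and 107. Control kidneys 2 and 6 stood among the rilmenidine kidneys, and rilmenidine kidney 2 stood among the lower controls. The means were 79.3 ± 33.2 (SD, n = 6) and 111 ± 32.2 (SD, n = 4), a 1.40-fold ratio. At 0.47 on the log2 scale (SE 0.26, 95% interval −0.09 to 1.03), this was the largest difference of the 8 enzymes. Its unadjusted p-value in edgeR was 0.0916, or 0.548 after adjustment. With every detected gene kept in that fit these were 0.00365 and 0.244. Without single kidneys the log2 fold change ran from 0.35 (rilmenidine kidney 3) to 0.66 (control kidney 2, unadjusted p-value 0.0164, adjusted 0.252). It was 0.65 without rilmenidine kidney 2 (unadjusted p-value 0.0246, adjusted 0.345) and 0.60 without control kidney 6 (unadjusted p-value 0.0394, adjusted 0.316). Malat1, a long RNA that stays in the nucleus, also set control kidneys 2 and 6 apart from the other controls. It had 1182 to 2100 normalized CPM in control kidneys 1, 3, 4 and 5, against 398 and 284 in control kidneys 2 and 6 and 306 to 393 in rilmenidine kidneys. With log2 Malat1 as a covariate the log2 fold change of Gnmt was −0.09 (unadjusted p-value 0.687).

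**Figure D3:**
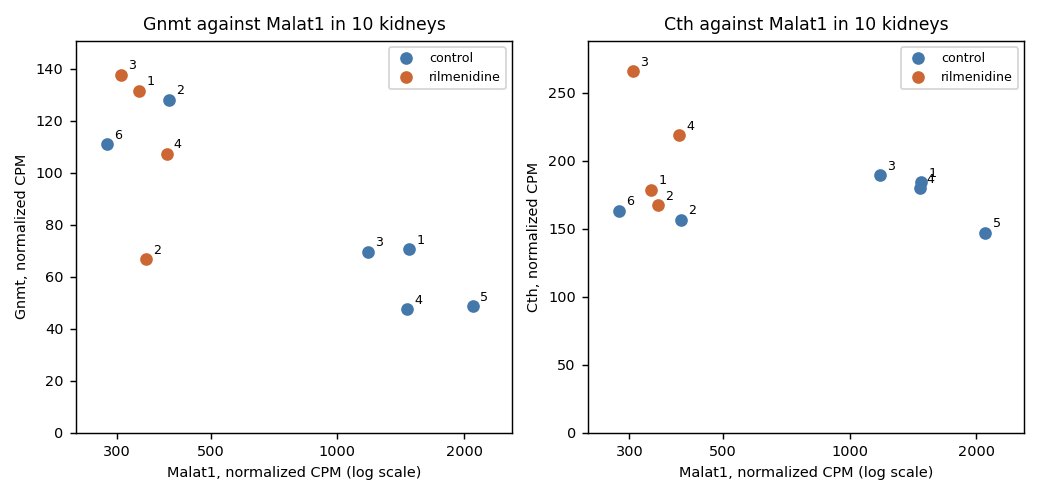
Normalized CPM of Gnmt (left) and Cth (right) against Malat1 (log axis) in the 10 kidneys, numbered by replicate. The 4 control kidneys with Malat1 over 1000 CPM had 47.5 to 70.7 CPM of Gnmt, and those with 398 and 284 had 128 and 111, within the range of the rilmenidine kidneys.

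Without the 4 control kidneys over 1000 CPM of Malat1, the log2 fold change of Gnmt was −0.10. With log2 library size as a covariate it was 0.15 (unadjusted p-value 0.627). The sign of Gnmt, Ahcy, Suox, Ethe1, Cbs and Bhmt turned with Malat1 as a covariate, and that of Cth and Tst did not. Cth was 0.33 with this covariate and 0.38 without those 4 kidneys, with unadjusted p-values of 0.0942 and 0.0853. In the main fit the values of Suox, Ethe1, Cbs, Bhmt and Tst were smaller in size than their SE. The share of all tested genes whose sign turned with Malat1 was not counted. High Malat1 occurred in control kidneys alone, so its part in the result and that of the drug can be told apart only through control kidneys 2 and 6.

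**Figure D4:**
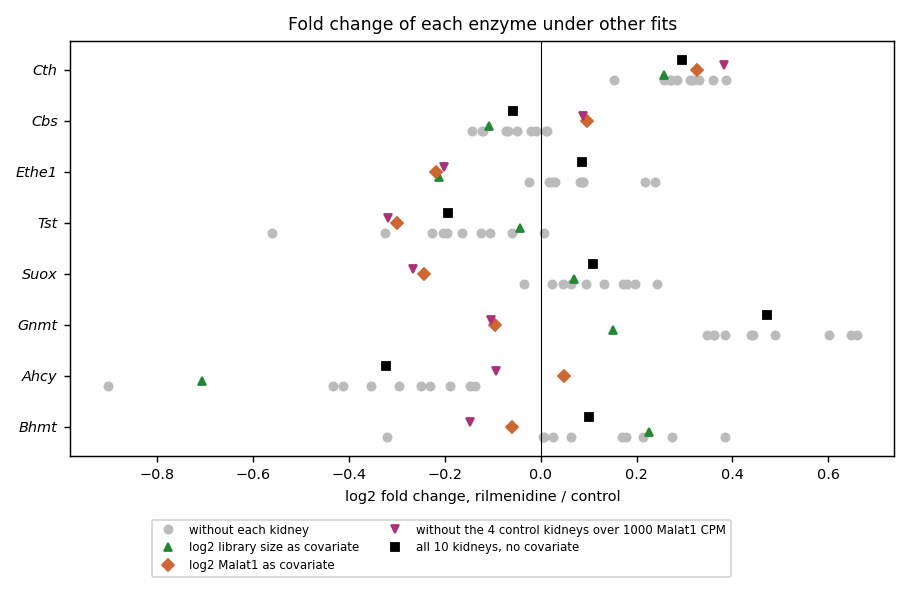
Log2 fold change of each enzyme (rilmenidine over control) in the fit of all 10 kidneys (black squares), without each kidney (grey points), with log2 library size or log2 Malat1 as a covariate, and without the 4 control kidneys high in Malat1. Cth stays above 0 under the fits shown, between 0.15 and 0.39. Gnmt moves from 0.47 to 0.15 with library size as a covariate and to −0.09 and −0.10 in the fits that account for Malat1. The fit within the 7 libraries higher in receptor genes is not shown, and in it Cth was 0.02 and Gnmt 0.44.

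Ahcy (ENSMUSG00000027597, chromosome 2, 155059310 to 155074497), which hydrolyzes S-adenosylhomocysteine to homocysteine, had the highest biological coefficient of variation in edgeR of the 8 enzymes. Its level was 40.4 normalized CPM at the lowest, 63.3 at the median and 90.8 at the highest in control kidneys. In rilmenidine kidneys 1 to 4 it was 28.4, 42.9, 31.8 and 98.7. Rilmenidine kidney 4 was the highest of the 10, and rilmenidine kidneys 1 and 3 were the lowest. Groups differed by −0.32 on the log2 scale (SE 0.32, 95% interval −0.99 to 0.35), and −0.90 without rilmenidine kidney 4 (unadjusted p-value 0.00345, adjusted p-value 0.379). Within the 7 libraries higher in receptor genes it was −0.96 (adjusted p-value 0.327), and −0.71 once log2 library size was a covariate. It was closer to 0 without rilmenidine kidney 1 (−0.14), rilmenidine kidney 3 (−0.15), control kidney 5 (−0.19) or the 4 control kidneys high in Malat1 (−0.092).

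Bhmt (ENSMUSG00000074768, chromosome 13, 93616675 to 93637961) had 2.49 to 5.78 normalized CPM in control kidneys and 5.80, 8.69, 3.15 and 2.19 in rilmenidine kidneys 1 to 4. Its log2 fold change was 0.10 with a 95% interval from −0.79 to 1.00, and it was −0.32 without rilmenidine kidney 2. Ahcyl2, a relative of Ahcy, had the smallest p-value of the other methionine cycle genes and differed by −0.19 on the log2 scale (SE 0.11).

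The spread among animals differed between the enzymes. The biological coefficient of variation that edgeR estimated was 0.171 for Cth and 0.168 for Cbs, beside medians of 0.165 and 0.166 for genes within 1.5-fold of the same mean CPM. It was 0.339 for Ahcy and 0.292 for Gnmt, beside medians of 0.172 and 0.169, which placed Ahcy above 91.6% and Gnmt above 84.2% of all tested genes. Ethe1 and Suox lay between, at 0.218 and 0.213. For 28 pairs of the 8 enzymes, levels were correlated over the 10 kidneys. No pair had an adjusted p-value under 0.05. Over all 10 kidneys the strongest pair was Cbs with Suox (Pearson r = −0.82, permutation p = 0.00618, adjusted p = 0.173, Spearman rho = −0.78, permutation p = 0.0104, adjusted p = 0.293). Its r was −0.63 without the 2 kidneys farthest from the median of Cbs. It was −0.81 after subtracting each group mean and −0.81 in the control kidneys. Cth with Bhmt had r = −0.64 over all 10 kidneys (permutation test, adjusted p = 0.383). In those 2 other settings it was stronger than Cbs with Suox, at −0.85 and −0.96. Bhmt had 3 to 16 raw counts per library, and r in these 2 settings was not tested. All levels share the depth and normalization of their library.

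Around the 9 enzymes, 9 lists of sulfur and one-carbon genes held 96 genes, of which 78 were tested. An adjusted p-value under 0.05 was found for 0 of them, and an unadjusted p-value under 0.05 for 6 (7.69%), 4 higher and 2 lower, below the 10.6% among all tested genes. The median log2 fold change of the 78 genes was 0.08. In the lists for hydrogen sulfide production (5 tested), sulfide oxidation (6) and the methionine cycle (9), 0 genes had an unadjusted p-value under 0.05. Those described here are Sardh, Gamt, Amt and Gss, with higher means after rilmenidine, and Atf4, with a lower mean.

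**Figure D5:**
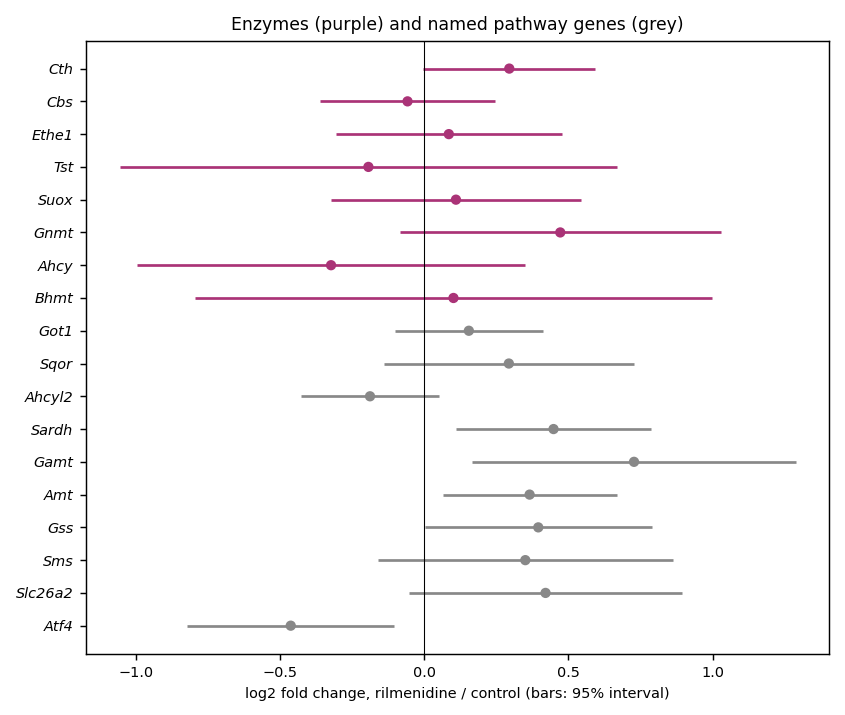
Log2 fold change (rilmenidine over control) with 95% intervals for the 8 tested enzymes (purple) and the named genes of the pathway lists (grey). All 8 enzyme intervals include 0, and those of Sardh, Gamt, Amt, Gss and Atf4 do not.

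Of the 16 folate genes tested, Amt, a subunit of the glycine cleavage system, had 94.8 ± 17.8 (SD, n = 6) normalized CPM in control and 122 ± 11.1 (SD, n = 4) after rilmenidine. It differed by 0.37 on the log2 scale (SE 0.14), with an adjusted p-value of 0.370 in edgeR, and by 0.31 with log2 Malat1 as a covariate (unadjusted p-value 0.108).

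Among genes of betaine and methyl donors, 2 of 5 had an unadjusted p-value under 0.05, beside 10.6% of all tested genes. Sardh, which demethylates the sarcosine that Gnmt makes, had 41.2 ± 7.66 (SD, n = 6) normalized CPM in control and 56.5 ± 8.19 (SD, n = 4) after rilmenidine, a log2 difference of 0.45 (SE 0.16, unadjusted p-value 0.0123, adjusted p-value 0.335). Its value was 31.4 to 50.9 in control kidneys and 46.2 to 66.1 in rilmenidine kidneys, so the groups overlapped. Gamt, the methyltransferase of creatine synthesis, differed by 0.73 on the log2 scale (SE 0.26, adjusted p-value 0.337). With log2 Malat1 as a covariate it was 0.42 (unadjusted p-value 0.196), and without the 4 control kidneys high in Malat1 it was 0.40 (unadjusted p-value 0.202). In cysteine use, beside the same 10.6%, 1 of 10 genes had an unadjusted p-value under 0.05. This was Gss, the synthetase of glutathione, at 0.40 on the log2 scale (SE 0.19, adjusted p-value 0.471). Gss was 0.19 without rilmenidine kidney 3 (unadjusted p-value 0.313) and 0.024 within the 7 libraries higher in receptor genes (unadjusted p-value 0.913). In methionine salvage and polyamine synthesis (10 tested) and in cystine and sulfate transport (7 tested) there were 0 such genes. The smallest p-values there belonged to Sms, spermine synthase, at 0.35 on the log2 scale (SE 0.24, unadjusted p-value 0.166), and to Slc26a2, a sulfate transporter, at 0.42 (SE 0.22, unadjusted p-value 0.0784). Sms was 0.17 without rilmenidine kidney 2 and also with log2 Malat1 as a covariate, and 0.60 within the 7 libraries higher in receptor genes. Slc26a2 was 0.32 without control kidney 5 and 0.54 without control kidney 2, the extremes of leaving out single kidneys. With the replicate number as a block it was 0.23, although these numbers did not pair the kidneys.

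ATF4 is a transcription factor that raises Cth and other genes of amino acid supply when amino acids run short. Atf4 itself had 53.9, 70.7, 55.6, 85.4, 95.4 and 60.4 normalized CPM in control kidneys 1 to 6 and 52.8, 46.2, 53.9 and 51.8 in rilmenidine kidneys 1 to 4. Every rilmenidine kidney lay below every control kidney, as for 0.875% of tested genes, but rilmenidine kidney 3 and control kidney 1 were level at 53.9 CPM. The groups differed by −0.46 on the log2 scale (SE 0.17, unadjusted p-value 0.0148, adjusted p-value 0.339), and −0.29 with log2 Malat1 as a covariate (unadjusted p-value 0.165). Of the 9 other genes on the ATF4 list that were tested, 0 had an unadjusted p-value under 0.05, beside 10.6% of all tested genes. A further 6 genes of the list were too low to test.

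Marker genes of other kidney cells were summed per library to set beside these values. The 10 proximal tubule markers, most abundant Kap, summed to 49114 ± 4690 (SD, n = 6) normalized CPM in control and 56524 ± 9506 (SD, n = 4) in rilmenidine kidneys, and the 9 without Kap to 9946 ± 934 and 9762 ± 775. Principal cell markers (4 genes, most abundant Aqp2) summed to 135 ± 17.1 (SD, n = 6) and 183 ± 11.4 (SD, n = 4). The sum was 113 to 157 in control kidneys and 168, 183, 189 and 194 in rilmenidine kidneys 1 to 4, without overlap. A two-sided exact permutation test gave p = 0.00476, the smallest possible, and 0.0476 after adjustment over the 10 marker lists. Thick ascending limb markers (4 genes, most abundant Umod) summed to 1286 ± 253 (SD, n = 6) and 1871 ± 431 (SD, n = 4), with an adjusted p of 0.143 in the exact permutation test. Distal convoluted tubule markers (3 genes, most abundant Pvalb) summed to 263 ± 59.9 (SD, n = 6) and 194 ± 55.9 (SD, n = 4), with an adjusted p of 0.333 in the same test. Of single markers, 2 of 3 tested principal cell genes, 2 of 3 distal convoluted tubule genes and 1 of 3 thick ascending limb genes had an unadjusted p-value under 0.05, beside 10.6% of all tested genes. The 7 remaining lists had 0 such genes, with 0 of 10 in the proximal tubule list. The proximal tubule list had an adjusted p of 0.333 and the other 6 lists of 0.981, and every marker was detected in at least 1 library. In whole kidney, fewer cells of a type and less RNA per cell cannot be told apart, and the part of the marker sums in the enzyme values was not tested.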

How the data were processed

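The authors deposited raw counts of reads per Ensembl gene for 10 kidney libraries. The submitters' processing notes name bcl2fastq 1.8.4, Trimmomatic 0.32, STAR 2.5.2b, featureCounts 1.5 and the build mm10. The annotation release, strand setting and handling of molecular identifiers are not given in the sources used here, so counts of overlapping or antisense genes are uncertain and intervals cover the spread between libraries only. Of 43629 genes, 42462 were found in GENCODE M21 (GRCm38), which gave symbols, exon lengths and coordinates.

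A gene was kept when no fewer than 66.6% of libraries (7 of 10) had 6 reads or more, which left 10055. These were normalized by RLE and tested with the quasi-likelihood test of edgeR 4.0.16 in R 4.3.3 over all 10 libraries, with Benjamini-Hochberg correction across the tested genes. The filter, normalization and package follow the supplementary methods. Normalized CPM divide by the effective library size. Log2 levels for correlations used a prior count of 2, with 100000 resamples. The 95% intervals of fold changes come from the same fit. The procedure was tested on simulated data first. Depth was 863605 to 3232063 counts per library, which limits the low genes.

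Groups and replicate numbers came from the labels, which call the libraries biological replicates. The enzymes, gene lists and alternatives were chosen with earlier results of these data known. Genes named beside the 9 enzymes were those of each list with an unadjusted p-value under 0.05, at most 3, or the gene with the smallest. Bhmt2, Malat1, Kap and Alb were also named, and 1 gene that met the rule is not reported here. The alternatives were TMM normalization, other count filters, DESeq2 1.42.0, the likelihood ratio test of edgeR, library size or Malat1 as a covariate, the 7 libraries at or above 10 CPM on olfactory and vomeronasal receptor genes, a replicate block and leaving out each kidney. Leaving out the control kidneys over 1000 CPM of Malat1 was added after seeing the data.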

Additional observations from a re-analysis of the deposited data

How the results depend on the processing

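None of the 8 enzymes passed an adjusted p-value of 0.05 in any alternative run. The count of all genes called (0) became 241 with every detected gene kept, 60 with the DESeq2 Wald test, 44 with the likelihood ratio test and 3 with the replicate block, and ranged from 0 to 37 with each kidney left out (33 without control kidney 2, 37 without control kidney 6, 6 without rilmenidine kidney 1). The count of enzymes with an unadjusted p-value under 0.05 (0) became 1 with TMM, 1 with every detected gene kept, 1 with at least 10 counts in every sample and 2 within the 7 libraries high in receptor genes, and ranged from 0 to 2 without each kidney. The count of pathway genes (6) became 10 with every detected gene kept and 3 with log2 Malat1 as a covariate. It was 10 within the 7 libraries high in receptor genes and 5 to 10 without each kidney. Over all tested genes, the share with an unadjusted p-value under 0.05 in edgeR moved as well. It was 10.6% in the main fit, 10.7% with TMM and 7.38% with every detected gene kept. With at least 10 counts in every sample it was 12.8%, and with log2 Malat1 as a covariate 3.03%. Within the 7 libraries it was 10.6%, and without each kidney 7.29% to 14.4%.

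With log2 Malat1 as a covariate, log2 fold changes that turned sign were 0.050 for Ahcy, −0.060 for Bhmt, 0.096 for Cbs, −0.22 for Ethe1, −0.094 for Gnmt, −0.24 for Suox and −0.059 for Sqor. Without the 4 control kidneys high in Malat1 they were −0.15 for Bhmt, 0.087 for Cbs, −0.20 for Ethe1, −0.10 for Gnmt, −0.27 for Suox and −0.063 for Sqor. With log2 library size as a covariate Ethe1 was −0.21, and within the 7 libraries high in receptor genes it was −0.058 and Bhmt2 −0.15. Without each kidney the values ran from −0.32 to 0.38 for Bhmt, −0.14 to 0.014 for Cbs, −0.024 to 0.24 for Ethe1, −0.034 to 0.24 for Suox and −0.56 to 0.0080 for Tst. The causes were not tested. Replicate numbers did not pair the kidneys: deviations of same-numbered kidneys correlated at 0.08, 0.08, −0.08 and −0.01. Mpst had no value under the main filter, and Tst and Bhmt had none with at least 10 counts in every sample.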

Other observations

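Slc7a11, which imports cystine into cells, was too low for the test and was looked at after its values had been seen. It had 21.2 normalized CPM in rilmenidine kidney 2 and 0 to 5.81 in the 9 other kidneys. The same library had the most counts on olfactory and vomeronasal receptor genes, at 352 CPM. Whether these are related was not tested.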
